A study of Mus musculus with 24 samples.

Results

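The genes of mitosis and of the G2/M transition were followed in Meis1/Hoxa9 preleukemic mouse cells with and without the terminal uridylyl transferases TUT4 and TUT7. A list of 35 genes was drawn up by function from the cyclins and kinases that start mitosis to the proteins that build the spindle and end it. All 35 were found among the 20867 genes of the deposited tables, in 38 annotated 3′UTR intervals.

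The cells came from c-Kit+ fetal liver of E14.5 C57BL/6 embryos and had been transformed with retroviruses that express Meis1 and Hoxa9 (written Hox9/Meis1 in the labels), so both genotypes carried these oncogenes. The deleted cells were labelled Tut4/7 Vav-iCre cDKO, in which iCre under the hematopoietic Vav promoter removes floxed Tut4 and Tut7, and they were set against cells labelled control. All cells grew in IMDM with 10% FBS, Stem Cell Factor, IL-6 and IL-3, and all were given 2.9 µM 4-thiouridine (4SU), which is built into new RNA, over 12 h. They were then moved to medium free of 4SU and harvested after 0, 60, 180 or 540 min of chase, with 3 replicates of each genotype and time, 24 libraries in all. Chase time is also what the labels name as batch, so a comparison between times cannot be told apart from one between batches, whereas the genotypes were compared within a time. The methods call the replicates biological triplicates and state that the replicates of such experiments came from independent animals or embryos.

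Entry into mitosis is driven by CDK1 bound to A- and B-type cyclins, and CDC25 phosphatases remove the inhibitory phosphates that hold this kinase back. PLK1 and the aurora kinases then mature the centrosomes and the spindle, the spindle checkpoint delays anaphase until every chromosome is attached, and the anaphase-promoting complex with CDC20 or FZR1 (CDH1) marks cyclins and securin for destruction. The transcripts of these genes are made mostly in late S phase, G2 and M, under the MuvB, B-MYB and FOXM1 activators, and they are held down in quiescent and G1 cells by the DREAM complex, which is recruited to a promoter element named the cell cycle genes homology region (CHR). In a bulk library of cycling cells, a lower level can therefore reflect fewer cells in G2/M or less RNA per cell, and these could not be told apart here.

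Promoter sequence (RefSeq, GRCm38.p6, 250 bases before to 50 after the start site) was found for 30 of the 35 genes, with 32 promoters in all. The core letters of the CHR, TTTGAA, were searched on both strands. They stood in 22 of the 32 promoters (68.8%), of 20 genes, against 12.2% of the 10448 promoters of genes tested in these cells at 0 min. Within 50 bases of the start site the shares were 59.4% and 3.17%. The letters CCAAT, also counted on both strands and able to share no more than an end letter with TTTGAA, were present in 84.4% of the mitotic promoters and 38.5% of the tested ones. A match describes the letters only and does not show that a factor binds there. Of the matches nearest to a start site 6 are shown (that of Hmmr, which lies as near as that of Ccnf, is not) because most of the promoters held this element. Each is 30 bases, 5′ to 3′ on the strand that reads TTTGAA, with the CHR core in capitals. The strand shown is that of the gene except in Ttk, a plus-strand gene whose match lies on the minus strand.
Prc1 promoter, chr7:80294434-80294463, plus strand: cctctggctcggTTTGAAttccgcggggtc
Cenpf promoter, chr1:189688067-189688096, minus strand: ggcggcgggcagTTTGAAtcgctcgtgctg
Kif23 promoter, chr9:61946780-61946809, minus strand: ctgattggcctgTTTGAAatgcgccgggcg
Ccnb2 promoter, chr9:70421533-70421562, minus strand: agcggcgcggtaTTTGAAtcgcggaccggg
Ttk promoter, chr9:83834684-83834713, minus strand: tccggaaacacgTTTGAAatttccccgctg
Ccnf promoter, chr17:24251406-24251435, minus strand: gctcccggcgcgTTTGAAaacggggcgggg

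Each library held between 4380235 and 7041311 3′UTR reads, and levels are given below as CPM, the read count of a gene scaled to this total. At 0 min 1.62 to 1.67% of T bases were converted to C in control and 0.542 to 0.845% in cDKO, with cDKO replicate 3 the lowest. Tut4 stood at 68.1, 75.2 and 86.3 CPM in control at 0 min and at 17.8, 30.2 and 18.6 in cDKO, and Tut7 at 40.3, 34.6 and 45.1 and 16.7, 19.2 and 20.2. In cDKO both were below every control library at each time, with reads remaining. Markers of other blood lineages also differed between the genotypes. Over all 12 libraries each, the summed level of 7 erythroid markers ranged over 0.372 to 3.07 CPM in control, with 3 of 7 detected (Hba-a2, Hbb-bs, Alas2 and Epor at 0), and 1307 to 2091 in cDKO, with 5 of 7 detected (Alas2 and Epor at 0). Only 1 of the 7, the globin Hbb-bt, had enough reads to be tested between genotypes. It was higher in cDKO at 0 min by 11.06 ± 0.40 on the log2 scale (SE). The sum of 10 neutrophil and granule markers ranged over 7492 to 8460.0 in control, against 1895 to 3098 in cDKO (Ltf at 0). That of 7 mast cell and basophil markers was 15.8 to 34.5 and 132 to 247. Of the 4 of these tested at 0 min, Gata2 and Cpa3 passed as higher in cDKO. The sums of 6 myeloid progenitor markers overlapped, at 1061 to 1388 in control and 967 to 1517 in cDKO, and did so within each time. Of these 6 only Spi1 passed at 0 min, as lower in cDKO (log2 -0.67). The sums of 4 megakaryocyte markers ranged over 2.59 to 9.49 in control and 7.32 to 23.7 in cDKO. Within each time every cDKO sum of these lay above every control sum, at 13.4 to 18.2 against 5.26 to 9.49 at 0 min. Of the 2 tested at 0 min, Itga2b passed as higher in cDKO (log2 4.93). The sums of 6 monocyte and macrophage markers ranged over 4591 to 5524 in control and 3925 to 4817 in cDKO. Within each chase time every cDKO sum lay below every control sum, at 4264 to 4817 against 4841 to 5187 at 0 min. Of these markers Csf1r was lower (log2 -3.98) and Adgre1 higher (3.35) in cDKO at 0 min. These shifts accompany every genotype comparison below, and their part in the results was not tested.

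Taken as a sum, the 35 transcripts were at a lower level in control at the end of the chase than in any other library. In control the sum was 4788, 4855 and 5043 CPM at 0 min, 4878, 4625 and 4711 at 60 min, 5021, 4964 and 5273 at 180 min and 4303, 4234 and 4237 at 540 min. In cDKO it was 4915, 4985 and 5062, then 4814, 4984 and 4904, then 4906, 5158 and 4933, and 5028, 5022 and 4921 at 540 min. Every control library at 540 min lay below all the others, and all cDKO libraries at 540 min lay above them, while at 0, 60 and 180 min the genotypes overlapped. The plot of summed abundance shows the control drop at the last time.

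**Figure D1:**
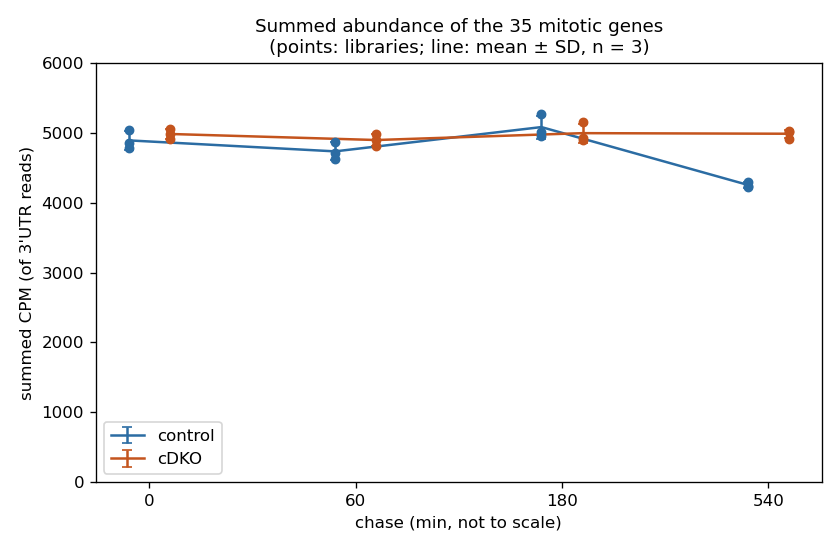
Summed CPM of the 35 mitotic genes (vertical axis) at each chase time in min (horizontal axis, not to scale), with 1 point per library and lines through the group mean ± SD (n = 3). The 3 control libraries at 540 min lie between 4234 and 4303, under all other libraries.

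Each gene was then tested by the edgeR quasi-likelihood test with adjustment over all genes, and a gene is called at an adjusted p under 0.05. Between the genotypes, 3 of the 35 were called at 0 min, where 13.4% of all genes tested were called, 5 at 60 min (20.2% of all genes), 6 at 180 min (18.9%) and 14 at 540 min (19.2%). Of the 14 at 540 min, 13 were higher in cDKO, a direction in which 8.89% of all genes were called. The median log2 difference of the 35 genes, cDKO over control, was 0.07 at 0 min, 0.03 at 60 min, -0.02 at 180 min and 0.24 at 540 min, beside medians over all genes within 0.01 of 0. Along the chase in control, 2 of the 35 were called at 60 against 0 min (3.33% of all genes), 3 at 180 min (7.27%) and 13 at 540 min (16.2%), and all 13 were lower, where 8.18% of all genes were called lower. In cDKO none of the 35 was called at 60 min (0.0% of all genes), at 180 min (0.00986%) or at 540 min (0.117%). The number of the 35 with an unadjusted p under 0.05 in edgeR was 0 at 60 min, 1 at 180 min and 4 at 540 min, and DESeq2 called 0 at each time. The median SE of the 35 for 540 against 0 min was 0.14 in cDKO and 0.10 in control. A change of a given size was therefore less readily called in cDKO.

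**Figure D2:**
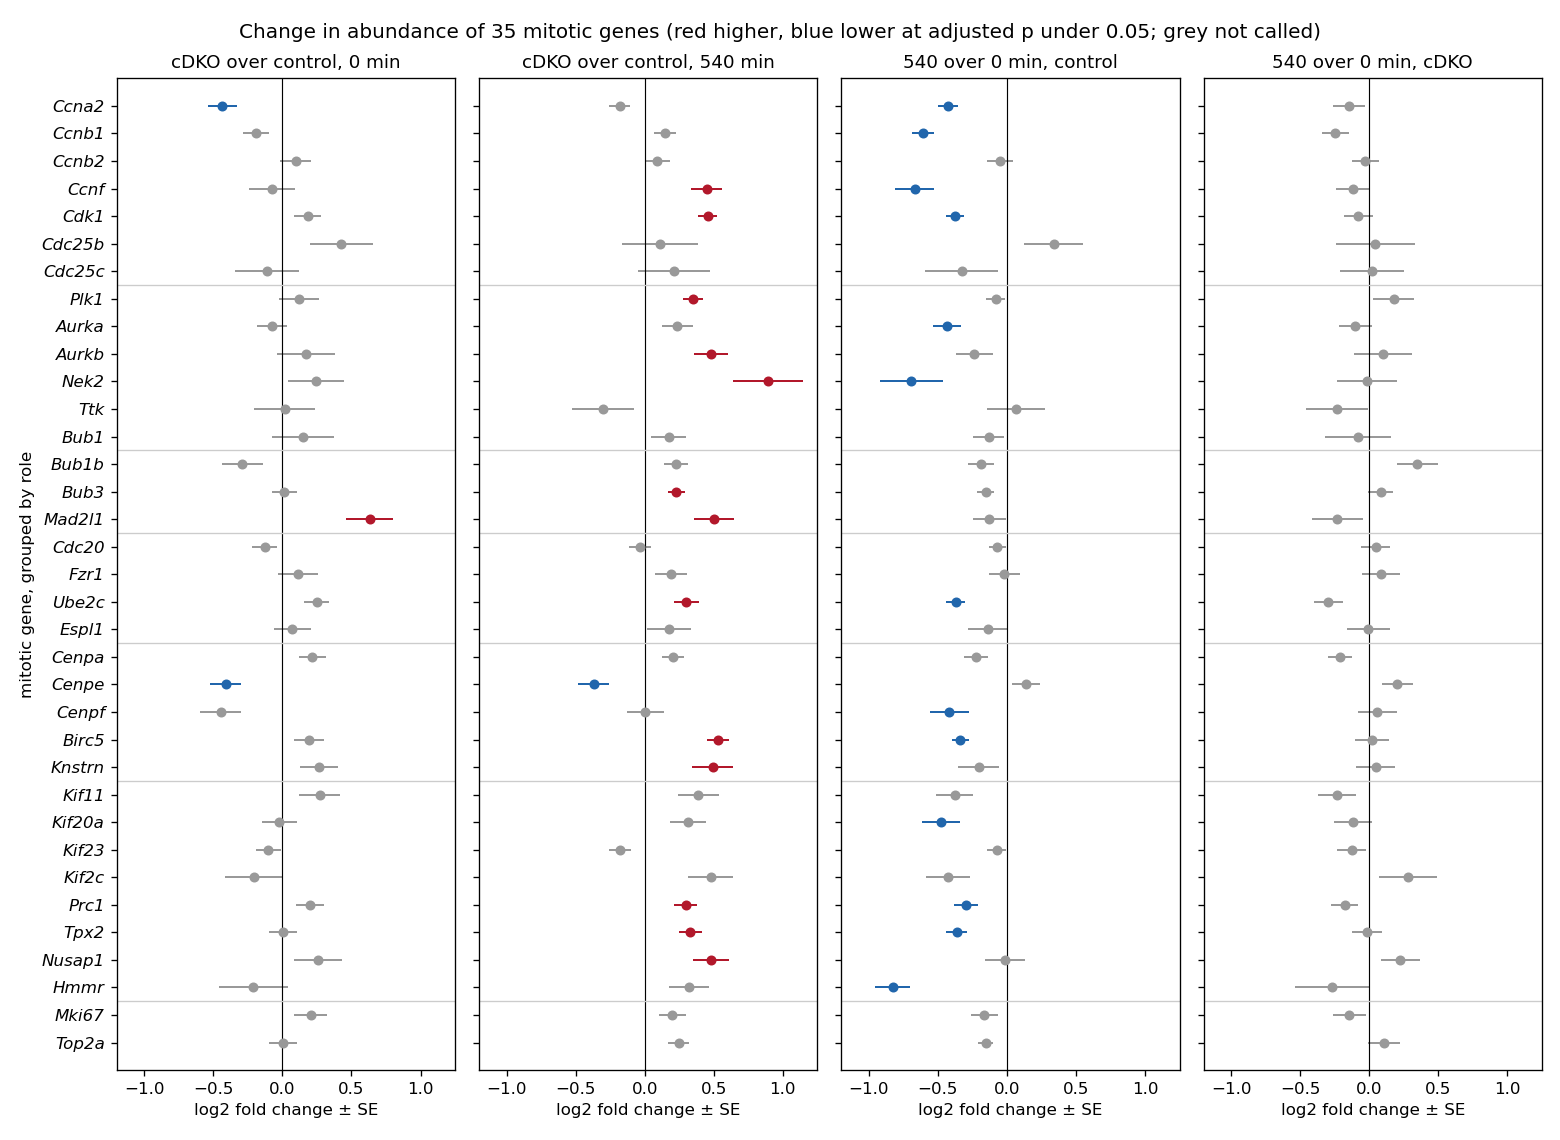
Log2 fold change ± SE (horizontal axes) of each of the 35 genes (vertical axis, grey lines between roles) for cDKO over control at 0 and 540 min and for 540 over 0 min in each genotype; red and blue points passed an adjusted p of 0.05 (edgeR), grey points did not. At 540 min 13 genes are red, in the control chase 13 are blue, and in the cDKO chase all 35 are grey.

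The genotype comparison at 540 min and the control chase use the same 3 control libraries at 540 min, so they are not independent of each other, and their values are set side by side below without being counted together. Among the cyclins and the switches of Cdk1, 2 of 7 genes were called higher in cDKO at 540 min and 4 of 7 lower at the end of the control chase. Ccna2, the cyclin of S phase and mitotic entry, had 237, 233 and 232 CPM at 0 min, 224, 218 and 203 at 60 min, 217, 208 and 233 at 180 min and 191, 174 and 171 at 540 min in control. In cDKO it had 175, 147 and 193 CPM at 0 min, 155, 161 and 168 at 60 min, 155, 173 and 169.7 at 180 min and 157, 154 and 164 at 540 min. All cDKO libraries lay below all control libraries at each time, and the control level itself was lowest at 540 min. The log2 difference between genotypes was -0.43 ± 0.11 (SE, adjusted p = 0.0261) at 0 min, -0.43 ± 0.07 (SE, adjusted p = 0.00244) at 60 min, -0.42 ± 0.08 (SE, adjusted p = 0.00451) at 180 min and -0.18 ± 0.08 (SE, adjusted p = 0.149) at 540 min. The change from 0 to 540 min was -0.43 ± 0.07 (SE, adjusted p = 0.000584) in control and -0.15 ± 0.12 (SE, adjusted p = 0.692) in cDKO. Ccna2 lies on chromosome 3 (3′UTR chr3:36564865-36566233, minus strand, mm10), where the other 481 genes tested at 0 min had a median log2 difference of -0.51, against 0.02 elsewhere. With the genes of chromosome 3 left out of the fit, Ccna2 and Cenpe among them, no member was called at 0 min. These 2 could not be called there, and Mad2l1, the other call at 0 min, no longer passed. The interval of Ccna2 also overlaps Exosc9 on the opposite strand, and whether the counting used strand was not given in the sources used here.

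Ccnb1, the mitotic cyclin B1, had 209.7, 185 and 207 CPM at 0 min, 205, 159 and 178 at 60 min, 192, 183 and 218 at 180 min and 144, 127 and 135 at 540 min in control. The cDKO libraries had 175, 179.8 and 167 CPM at 0 min, 175, 164 and 153 at 60 min, 174, 194 and 151 at 180 min and 148, 156 and 147 at 540 min. Control was above cDKO in every library at 0 min and below it in every library at 540 min. The change from 0 to 540 min was -0.61 ± 0.08 (SE, adjusted p = 8.03e-05) on the log2 scale in control and -0.24 ± 0.09 (SE, adjusted p = 0.401) in cDKO. The genotypes differed by -0.19 ± 0.10 (SE, adjusted p = 0.248) at 0 min and 0.15 ± 0.08 (SE, adjusted p = 0.261) at 540 min. Of its reads, 20.4% mapped to more than 1 place, so its level may share reads with near-identical sequence. Cdk1, the kinase that binds it, had 295, 298 and 312 CPM at 0 min, 339.7, 319 and 307 at 60 min, 322, 324 and 356 at 180 min and 245, 231 and 239 at 540 min in control. In cDKO Cdk1 had 316, 321 and 379 CPM at 0 min, 352, 379 and 386 at 60 min, 376, 405 and 407 at 180 min and 348, 310.0 and 327 at 540 min. Every cDKO library was above every control library of the same time. At 540 min Cdk1 was higher in cDKO by 0.46 ± 0.07 (SE, adjusted p = 0.00251). It fell over the control chase, with a log2 change of -0.38 ± 0.06 (SE, adjusted p = 0.000618), and the cDKO chase gave -0.08 ± 0.10 (SE, adjusted p = 0.842).

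Ccnf, an F-box cyclin that peaks in G2, had 43.4, 54.3 and 67.5 CPM at 0 min and 35.5, 36.5 and 34.9 at 540 min in control, against 52.3, 52.1 and 51.1 and 50.012, 49.9 and 46.7 in cDKO. It was called in both comparisons, with a log2 difference of 0.45 ± 0.11 (SE, adjusted p = 0.0200) between genotypes at 540 min and a change of -0.67 ± 0.14 (SE, adjusted p = 0.00386) along the control chase. Ccnb2, the other B-type cyclin, was called in no comparison, with 0.09 ± 0.09 between genotypes at 540 min and -0.05 ± 0.09 in the control chase (SE). The phosphatases Cdc25b and Cdc25c had among the fewest reads of the set, and their log2 differences at 540 min were 0.11 ± 0.27 and 0.21 ± 0.26, neither called at any time.

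Of the 6 mitotic kinases, Plk1, Aurkb and Nek2 were called higher in cDKO at 540 min and Aurka and Nek2 lower at the end of the control chase. Plk1, the polo kinase, had 218, 232 and 241 CPM at 0 min, 230.2, 252 and 236 at 60 min, 254, 251 and 275 at 180 min and 219, 236 and 214 at 540 min in control. It had 213, 304 and 223 CPM at 0 min, 230.2, 207 and 194 at 60 min, 256, 249.97 and 229.7 at 180 min and 299.9, 277 and 281 at 540 min in cDKO. At 60 min every cDKO library was below every control library and at 540 min above, and the log2 difference at 540 min was 0.35 ± 0.07 (SE, adjusted p = 0.00929), yet neither chase gave a call (-0.08 ± 0.07 in control, 0.18 ± 0.15 in cDKO, SE). Aurka, the centrosomal aurora kinase, had 113, 116 and 115 CPM at 0 min, 101, 103 and 123 at 60 min, 115, 107 and 123 at 180 min and 86.1, 97.4 and 77.0 at 540 min in control. Its cDKO levels were 114, 112 and 96.2 CPM at 0 min, 115, 107 and 86.2 at 60 min, 126, 110.2 and 113 at 180 min and 95.5, 103 and 109 at 540 min. Only the control libraries at 540 min stood apart from their own 0 min group, with a log2 change of -0.44 ± 0.10 (SE, adjusted p = 0.00606), and the genotypes overlapped at each time, with 0.24 ± 0.11 (SE, adjusted p = 0.188) at 540 min.

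Aurkb, the kinase of the chromosomal passenger complex, had 38.3, 48.5 and 50.1 CPM at 0 min, 44.0, 56.6 and 47.2 at 60 min, 43.3, 46.6 and 54.2 at 180 min and 41.6, 42.3 and 35.5 at 540 min in control. In cDKO there were 62.8, 34.6 and 56.1 CPM at 0 min, 54.3, 69.7 and 59.5 at 60 min, 59.4, 59.0 and 56.2 at 180 min and 54.5, 60.4 and 52.5 at 540 min. The groups separated at 180 and 540 min, and the difference was called at 540 min with 0.48 ± 0.12 (SE, adjusted p = 0.0230). Nek2, a kinase that splits centrosomes, had the largest log2 difference of the 35 genes at 540 min. It stood at 14.6, 8.64 and 11.8 CPM in control and 27.3, 18.9 and 19.1 in cDKO, a difference of 0.89 ± 0.25 (SE, adjusted p = 0.0360). In control it had been at 20.7, 18.4 and 15.8 at 0 min, a change of -0.69 ± 0.23 (SE, adjusted p = 0.0489). Ttk (MPS1) and Bub1, both kinases of the spindle checkpoint, were not called in any comparison, and Ttk, on few reads, had a log2 difference of -0.30 ± 0.22 (SE) at 540 min.

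Of the 3 further spindle checkpoint proteins, 2 were called higher in cDKO at 540 min and none lower in the control chase. Mad2l1 (MAD2), which with BUBR1 and BUB3 holds CDC20 inactive, was higher in cDKO from the start. It had 61.0, 76.7 and 79.9 CPM in control at 0 min and 109.8, 87.2 and 138 in cDKO, and at 540 min 66.9, 60.0 and 77.5 against 90.3, 84.7 and 116. The cDKO libraries were above the control libraries at each of the 4 times, by a log2 difference of 0.63 ± 0.17 (SE, adjusted p = 0.0411), 0.51 ± 0.10 (SE, adjusted p = 0.00658), 0.52 ± 0.13 (SE, adjusted p = 0.0218) and 0.50 ± 0.15 (SE, adjusted p = 0.0425) in order of time. Mad2l1 and Cenpe were the members called between genotypes at all 4 times, in opposite directions. Bub3 was called at 540 min, at 0.23 ± 0.06 (SE, adjusted p = 0.0321). Bub1b (BUBR1) had 114, 107 and 131 CPM at 0 min, 139, 118 and 98.9 at 60 min, 138, 133 and 130.0 at 180 min and 108, 107 and 101 at 540 min in control. The cDKO values were 106, 74.3 and 105 CPM at 0 min, 107, 114 and 109.7 at 60 min, 99.3, 125 and 105 at 180 min and 121, 133 and 118 at 540 min. cDKO was below control at 0 and 180 min and above it at 540 min in every library. The differences were -0.29 ± 0.15 (SE, adjusted p = 0.256), -0.30 ± 0.10 (SE, adjusted p = 0.0612) and 0.23 ± 0.09 (SE, adjusted p = 0.110), none of them called.

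Among the regulators of mitotic exit, Cdc20, the activator of the anaphase-promoting complex in metaphase, was lower in cDKO in the middle of the chase. It had 474, 442 and 466 CPM at 0 min, 477, 464 and 462 at 60 min, 498, 532 and 509 at 180 min and 459, 461 and 431 at 540 min in control. It had 432, 433 and 387 CPM at 0 min, 409.9, 411 and 375 at 60 min, 407, 432 and 381 at 180 min and 469, 461 and 396 at 540 min in cDKO. The groups did not overlap at 0, 60 and 180 min and overlapped at 540 min. The differences were -0.13 ± 0.09 (SE, adjusted p = 0.419), -0.25 ± 0.06 (SE, adjusted p = 0.0199), -0.35 ± 0.07 (SE, adjusted p = 0.00732) and -0.03 ± 0.08 (SE, adjusted p = 0.805) in order of time, with calls at 60 and 180 min. Its annotated 3′UTR (chr4:118432901-118432962, minus strand) is 62 bases long, the shortest total of the 35 genes, and overlaps Elovl1 on the opposite strand, so its counts are less certain than the others. Fzr1, the activator that follows in late mitosis and G1, had 91.6, 83.8 and 106 CPM at 0 min, 87.7, 96.1 and 98.9 at 60 min, 98.9, 109 and 114 at 180 min and 94.0, 107 and 83.6 at 540 min in control. In cDKO it had 86.1, 113 and 101 CPM at 0 min, 81.4, 90.3 and 88.3 at 60 min, 111, 106 and 104 at 180 min and 114, 98.2 and 115 at 540 min. The groups overlapped at every time and Fzr1 was called in no comparison.

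Ube2c, the ubiquitin-conjugating enzyme of the complex, had 349.7, 255 and 314 CPM in control and 394, 391 and 433 in cDKO at 60 min, and 296, 302 and 329 against 403, 412 and 333 at 540 min. It was called higher in cDKO at both times, by 0.39 ± 0.11 (SE, adjusted p = 0.0275) and 0.30 ± 0.09 (SE, adjusted p = 0.0475). In control it was lower than at 0 min (359, 383 and 427), with log2 changes of -0.33 ± 0.08 (SE, adjusted p = 0.0101) at 60 min and -0.37 ± 0.07 (SE, adjusted p = 0.00127) at 540 min. Espl1 (separase), the protease that opens cohesin, was not called in any comparison.

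Cenpe, the kinetochore motor that aligns chromosomes, was called lower in cDKO at every time. It had 81.3, 86.3 and 87.4 CPM at 0 min, 89.6, 76.0 and 92.9 at 60 min, 109, 98.8 and 112 at 180 min and 105, 84.6 and 98.0 at 540 min in control. Its cDKO levels were 64.6, 59.1 and 66.6 CPM at 0 min, 74.4, 65.3 and 59.3 at 60 min, 74.7, 78.7 and 58.6 at 180 min and 77.3, 77.6 and 69.5 at 540 min. No cDKO library reached the lowest control library of its time. The differences were -0.41 ± 0.11 (SE, adjusted p = 0.0435), -0.40 ± 0.13 (SE, adjusted p = 0.0488), -0.61 ± 0.13 (SE, adjusted p = 0.00679) and -0.37 ± 0.11 (SE, adjusted p = 0.0487) in order of time. Cenpe, like Ccna2, lies on chromosome 3 (3′UTR chr3:135273240-135273540, plus strand), where the median of the other genes tested was -0.48 at 60 min, -0.52 at 180 min and -0.52 at 540 min. At 180 min in control it was above its 0 min level, by 0.35 ± 0.09 (SE, adjusted p = 0.0173).

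Birc5 (survivin), a passenger protein that also blocks apoptosis, was above control in every cDKO library at each time. It had 309.7, 304 and 308 CPM at 0 min and 252, 249 and 248 at 540 min in control, against 323, 395 and 323 and 344, 343 and 398 in cDKO. The difference at 540 min was 0.53 ± 0.08 (SE, adjusted p = 0.00184) and the control change -0.34 ± 0.06 (SE, adjusted p = 0.00118). At 180 min the levels were 300.4, 269.7 and 285 in control and 348, 339 and 344 in cDKO, higher in cDKO by 0.25 ± 0.07 (SE, adjusted p = 0.0334). Knstrn, a partner of astrin at the kinetochore, was called at 540 min at 0.49 ± 0.15 (SE, adjusted p = 0.0440). Cenpa, the centromeric histone, was not called between genotypes, and in control it rose from 142, 169.5 and 172 CPM at 0 min to 200.3, 183 and 203 at 180 min, a log2 change of 0.29 ± 0.08 (SE, adjusted p = 0.0201). Cenpf, a kinetochore protein that accumulates in G2, was lower at the end of the control chase, with a log2 change of -0.42 ± 0.14 (SE, adjusted p = 0.0492), but its libraries at 0 and 540 min overlapped and the call held in 4 of 13 alternative settings.

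The spindle motors and microtubule proteins had 3 of 8 members called higher in cDKO at 540 min and 4 of 8 lower in the control chase, with medians of 0.33 and -0.37 over the 8. Prc1, which bundles midzone microtubules, gave 0.30 ± 0.08 (SE, adjusted p = 0.0350) between genotypes and -0.30 ± 0.09 (SE, adjusted p = 0.0241) along the control chase. Tpx2, which activates Aurora A on the spindle, gave 0.33 ± 0.08 (SE, adjusted p = 0.0221) and -0.37 ± 0.08 (SE, adjusted p = 0.00356). Nusap1, which bundles microtubules near chromatin, was called between genotypes at 0.48 ± 0.13 (SE, adjusted p = 0.0310). Hmmr, a spindle and hyaluronan-binding protein, had the largest drop in control. It went from 65.0, 67.7 and 73.1 CPM at 0 min to 51.1, 41.4 and 47.6 at 60 min and 38.2, 33.8 and 46.9 at 540 min. These were log2 changes of -0.54 ± 0.12 (SE, adjusted p = 0.00389) and -0.83 ± 0.13 (SE, adjusted p = 0.000276). In cDKO Hmmr had 74.2, 33.4 and 69.9 at 0 min and 50.9, 53.0 and 45.8 at 540 min, with cDKO replicate 2 far below the others at 0 min. Kif20a, a motor of cytokinesis whose interval overlaps Cdc23 on the other strand, fell in control, with a log2 change of -0.48 ± 0.14 (SE, adjusted p = 0.0227). Kif23, a subunit of centralspindlin, had 201, 199 and 195 CPM at 0 min and 255, 233 and 273 at 180 min in control, a rise of 0.37 ± 0.07 (SE, adjusted p = 0.000992). It had 199, 224 and 217 in cDKO at 180 min, a genotype difference of -0.27 ± 0.08 (SE, adjusted p = 0.0442). Kif11 (Eg5) and Kif2c were called in none of these, at 0.39 ± 0.15 and 0.48 ± 0.16 between genotypes at 540 min.

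Neither of the chromosome proteins was called in any comparison. Mki67, which coats mitotic chromosomes, had 93.5, 107 and 99.2 CPM at 0 min, 94.0, 95.9 and 88.8 at 60 min, 90.8, 91.7 and 92.2 at 180 min and 92.2, 97.4 and 85.4 at 540 min in control. In cDKO there were 107, 128 and 107 CPM at 0 min, 94.5, 103 and 105 at 60 min, 88.7, 101 and 94.3 at 180 min and 104, 101 and 113 at 540 min. Of its reads, 36.6% mapped to more than 1 place. The log2 difference was 0.21 ± 0.12 (SE, adjusted p = 0.323) at 0 min and 0.20 ± 0.10 (SE, adjusted p = 0.187) at 540 min. Top2a, the topoisomerase that untangles sister chromatids, had 453, 469 and 462 CPM at 0 min, 402, 414 and 455 at 60 min, 437, 437 and 424 at 180 min and 409, 428 and 438 at 540 min in control. It had 454, 507 and 413 CPM at 0 min, 427, 488 and 414 at 60 min, 474, 494 and 443 at 180 min and 486, 561 and 472 at 540 min in cDKO. The groups separated at 180 and 540 min, and the difference at 540 min was 0.24 ± 0.08 (SE, adjusted p = 0.0560). The Mki67 libraries of the genotypes were likewise apart at 540 min and overlapped before.

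**Figure D3:**
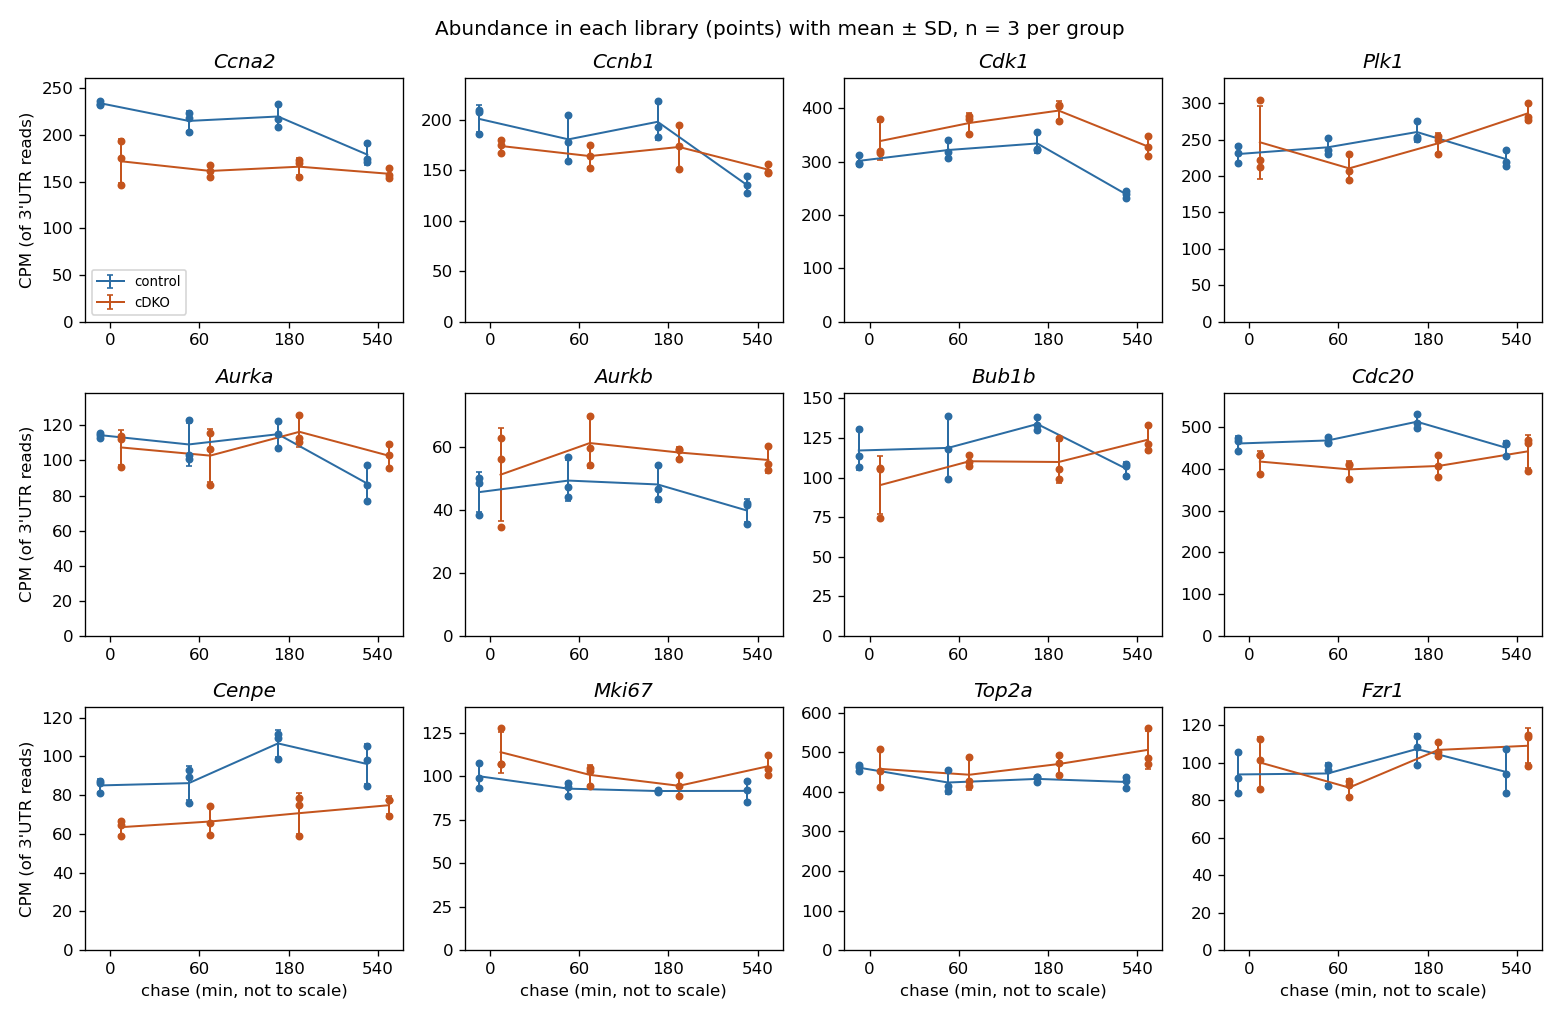
CPM (vertical axes) against chase time in min (horizontal axes, not to scale) for 12 members, with a point per library and lines through the mean ± SD (n = 3) of control and cDKO. Cdk1 lies higher in cDKO and Ccna2 and Cenpe lower at each time, and the control means of Ccnb1, Cdk1 and Aurka are lowest at 540 min.

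The number of members called depended on single libraries. Between genotypes at 540 min, without control replicate 3 it was 2 of 35, without cDKO replicate 1 it was 4, without control replicates 1 or 2 it was 6 and 7, and without cDKO replicates 2 or 3 it was 9 each. The counts over all genes in fits that left out a library are not given here. The median log2 difference of the 35 genes changed less, from 0.23 to 0.27 over the 13 alternative settings. Cdk1 and Birc5 were called in all 13 of these and Plk1 in 12, while Cenpe was called in 3 of 12. The other calls held in fewer of the 13, with Nek2 called in 10, Aurkb, Ccnf and Tpx2 in 9, Prc1 in 8, Bub3, Mad2l1 and Nusap1 in 7, and Knstrn and Ube2c in 6. At 0 min no member was called without cDKO replicate 1 or without any of the control replicates. At 60 min the count of 5 became 3, 2 and 2 without control replicates 1, 2 and 3, and at 180 min the count of 6 became 3 without control replicate 1 or 2. Along the control chase the 2 calls at 60 min became 0 without 60 min replicate 2 and 1 without 0 min replicate 3, and the 3 calls at 180 min became 1 without 180 min replicate 1 or 3. Members whose libraries did not overlap numbered 21 higher and 3 lower in cDKO at 540 min, against 18.2% and 18.9% of all genes tested.

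Whether the mitotic genes changed differently over the chase between the genotypes was tested directly. In control the 13 genes called lower at 540 min were Ccna2, Ccnb1, Ccnf, Cdk1, Aurka, Nek2, Ube2c, Cenpf, Birc5, Kif20a, Prc1, Tpx2 and Hmmr, and 32 of the 35 estimates were below 0, with a median of -0.22 beside 0.00 for all genes. Leaving out a library gave 9 to 11 calls. Over all alternatives Cenpf was called in 4 of 13, Nek2 in 7, Kif20a in 8 and Prc1 in 9, and the other 9 genes in every one that could be run. In cDKO the median was -0.02. The difference between the genotypes in this change had a median of 0.25 over the 35 genes and 0.00 over all genes, and 31 of the 35 estimates were above 0, but edgeR called no member (0.0% of all genes). DESeq2 called none either, and 10 of the 35 had an unadjusted p under 0.05, where 5.23% of all genes did. The largest estimates were those of Kif2c (0.70 ± 0.27), Nek2 (0.67 ± 0.32) and Hmmr (0.56 ± 0.32, SE), and that of Ccnb1 was 0.36 ± 0.12 with an adjusted p of 0.926. The median standard error of a member was 0.17. With the replicate number as a block, since same-numbered cDKO libraries deviated together, no member was called in the cDKO chase either, while the calls among all genes were 6, 10 and 128 at 60, 180 and 540 min.

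Other genes of the same pathways, taken from lists drawn up by function, were read in the same fits. Of 121 further genes of the checkpoint, kinetochore, spindle, condensin and cohesin, G2/M transcription and Cdk1 control, 119 were tested at 540 min, and 22 stood higher and 3 lower in cDKO among those called, the median log2 difference being 0.23. At 0 min these counts were 2 and 3, at 60 min 10 and 7, and at 180 min 3 and 7. Calls of lower level thus outnumbered those of higher level at 0 and 180 min. The median at 180 min was 0.09, with 70 of 119 estimates above 0. The genes called lower at 540 min were Cks1b, Smc4 and Pmf1. All lie on chromosome 3, where the genes tested other than Ccna2 and Cenpe had a median of -0.52. Smc4 and Pmf1 were also called lower at each earlier time, and Cks1b at 60 and 180 min. The remaining lower calls at the earlier times lay on other chromosomes. Of all genes tested 8.89% were called higher at 540 min, and 13.4, 20.2 and 18.9% were called in either direction at the earlier times. In the control chase to 540 min 18 were called lower and 5 higher (median -0.17), where 8.18% of all genes were called lower. In the cDKO chase none was called (median -0.02). The other spindle and cytokinesis genes had the median farthest from 0 of these lists in both comparisons. It was 0.38 between genotypes at 540 min, with 6 of 26 called higher. It was -0.42 along the control chase, with 7 of 26 called lower. Kif14, a midbody kinesin, was higher in cDKO at 540 min by 0.93 ± 0.15 (SE, adjusted p = 0.00251). Gtse1, a G2 regulator of p53, was lower at the end of the control chase, with a log2 change of -1.13 ± 0.23 (SE, adjusted p = 0.00232). Among 30 other kinetochore and passenger genes, 8 passed as higher in cDKO and 1 as lower at 540 min, and the largest differences were those of Cenpq at 1.10 ± 0.18 (SE, adjusted p = 0.00304) and Knl1 at 1.09 ± 0.22 (SE, adjusted p = 0.00886). The transcription factors Foxm1 and Mybl2 (B-MYB) were called higher in cDKO at 540 min, by 0.46 ± 0.11 (SE, adjusted p = 0.0208) and 0.36 ± 0.11 (SE, adjusted p = 0.0432), with no other call at that time among 16 G2/M transcription regulators. The calls of this list at earlier times were all lower in cDKO. Nfya, a subunit of the factor that binds CCAAT, differed by -0.49 ± 0.15 (SE, adjusted p = 0.0499) at 60 min and -0.50 ± 0.13 (SE, adjusted p = 0.0254) at 180 min. Rbbp4, a MuvB subunit that is also part of several chromatin complexes, differed by -0.19 ± 0.06 (SE, adjusted p = 0.0335) and -0.23 ± 0.07 (SE, adjusted p = 0.0414). Nfyc, another subunit of the CCAAT factor, differed by -0.48 ± 0.13 (SE, adjusted p = 0.0312) at 60 min.

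The genes of G1/S and replication were set beside them. Of 37 tested at 540 min, 3 were called higher in cDKO (Mcm3, Pcna and E2f7), with a median of 0.03, where 8.89% of all genes were called higher. At the earlier times 4 were called higher and none lower at 0 min, 6 higher and 2 lower at 60 min, and 8 higher and none lower at 180 min, where the median was 0.20 and 32 of 37 estimates were above 0. Calls in either direction made up 13.4, 20.2 and 18.9% of all genes at these 3 times, and at 180 min 923 of 10142 were called higher. The summed level of these genes at 180 min was 6725, 6843 and 6779 CPM in control, below every other library, and 7802, 7839 and 7512 in cDKO. In the control chase to 540 min 7 were called lower and 1 higher, with a median of -0.17, where 8.18% of all genes were called lower. Their sum at 540 min was 7067, 7297 and 7139.9 CPM in control and 7649.5, 7499.8 and 6945 in cDKO, and the groups overlapped. Cdkn1a (p21), the Cdk inhibitor induced by p53, had 610.4, 659.6 and 589 CPM in control at 0 min and 234, 238 and 283 in cDKO. At 540 min the values were 257, 301 and 259.8 and 252, 190.3 and 312. It was lower in cDKO at 0 min, with a log2 difference of -1.29 ± 0.10 (SE, adjusted p = 0.000122), and was also called lower at 60 and 180 min. In control it fell over the chase, with a log2 change of -1.22 ± 0.07 (SE, adjusted p = 6.76e-09). Other Cdk inhibitors went the other way between genotypes. Cdkn2c was called higher in cDKO at 60 min (2.12 ± 0.55) and at 540 min (2.57 ± 0.63, SE, adjusted p = 0.0197). Cdkn1b was called higher at 60 min (0.61 ± 0.14, SE, adjusted p = 0.0132).

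Half-lives of labelled RNA were fitted from the conversion rate, the fraction of covered T bases read as C, divided by its mean at 0 min in the same genotype. Such a half-life assumes a steady transcript level over the chase. In control 13 of the 35 genes, Ccnb1, Cdk1, Ccna2, Nek2, Ube2c, Prc1 and Tpx2 among them, were called lower at 540 min, and none in cDKO. How far this shifts their half-lives and the genotype comparison was not tested. Of the 35 genes, 23 met the spread allowed at 0 min (SD below 0.3 in both genotypes). In control their half-lives ran from 98.3 min (Ccnf) to 279 min (Bub1b), with a median of 202 min beside 224 min for all 3712 genes that passed. In cDKO the median was 217 min, beside 251 min for all genes, and 16 of 23 (69.6%) were longer in cDKO, where 68.6% of all genes were. The median log2 ratio of the 23 was 0.23, beside 0.19 for all genes. The 12 that did not pass were Cdc25c, Aurkb, Ttk, Bub3, Mad2l1, Fzr1, Cenpe, Knstrn, Kif23, Kif2c, Hmmr and Mki67. With them included 23 of 35 (65.7%) were longer, where 65.5% of all 9256 genes without this filter were. Without cDKO replicate 3, the least labelled of the libraries, 33 passed and 20 of them were longer in cDKO. The share over all genes in that fit is not given here.

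Among the cyclins, Ccnb1 had a half-life of 142 min in control against 197 min in cDKO. Its replicates, each fitted on its own, gave 149, 138 and 141 min in control against 200.1, 188 and 205 min in cDKO, without overlap. Ccna2 gave 253 min in control against 312 min in cDKO, also without overlap between replicates. Cdk1 gave 149 min in control against 173 min in cDKO and Ccnb2 259.7 min in control against 349 min in cDKO, with overlap in both. Of the kinases, Nek2 had 126 min in control against 194 min in cDKO, Plk1 157 min in control against 191 min in cDKO and Aurka 131 min in control against 112 min in cDKO. The longest fitted half-life in cDKO was that of Ube2c, which had 273 min in control against 368 min in cDKO, with replicates of 267, 271 and 281 min and 366, 346 and 404 min. Cdc20 had 252 min in control against 339 min in cDKO, with replicates of 237, 252 and 269 min and 359.6, 275 and 425 min. Tpx2 (156 min in control against 226 min in cDKO), Prc1 (135 min in control against 179 min in cDKO) and Cenpa (246 min in control against 299 min in cDKO) likewise did not overlap between genotypes. In the other direction, Bub1b had 279 min in control against 226 min in cDKO, with every cDKO replicate below every control replicate. Espl1 (202 min in control against 142 min in cDKO) and Kif20a (212 min in control against 145 min in cDKO) had shorter fitted half-lives with overlapping replicates. Top2a had 212 min in control against 217 min in cDKO. In all, 8 of the 23 had every cDKO replicate above every control replicate and 1 had every one below, against 17.0% and 3.23% of all genes that passed.

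**Figure D4:**
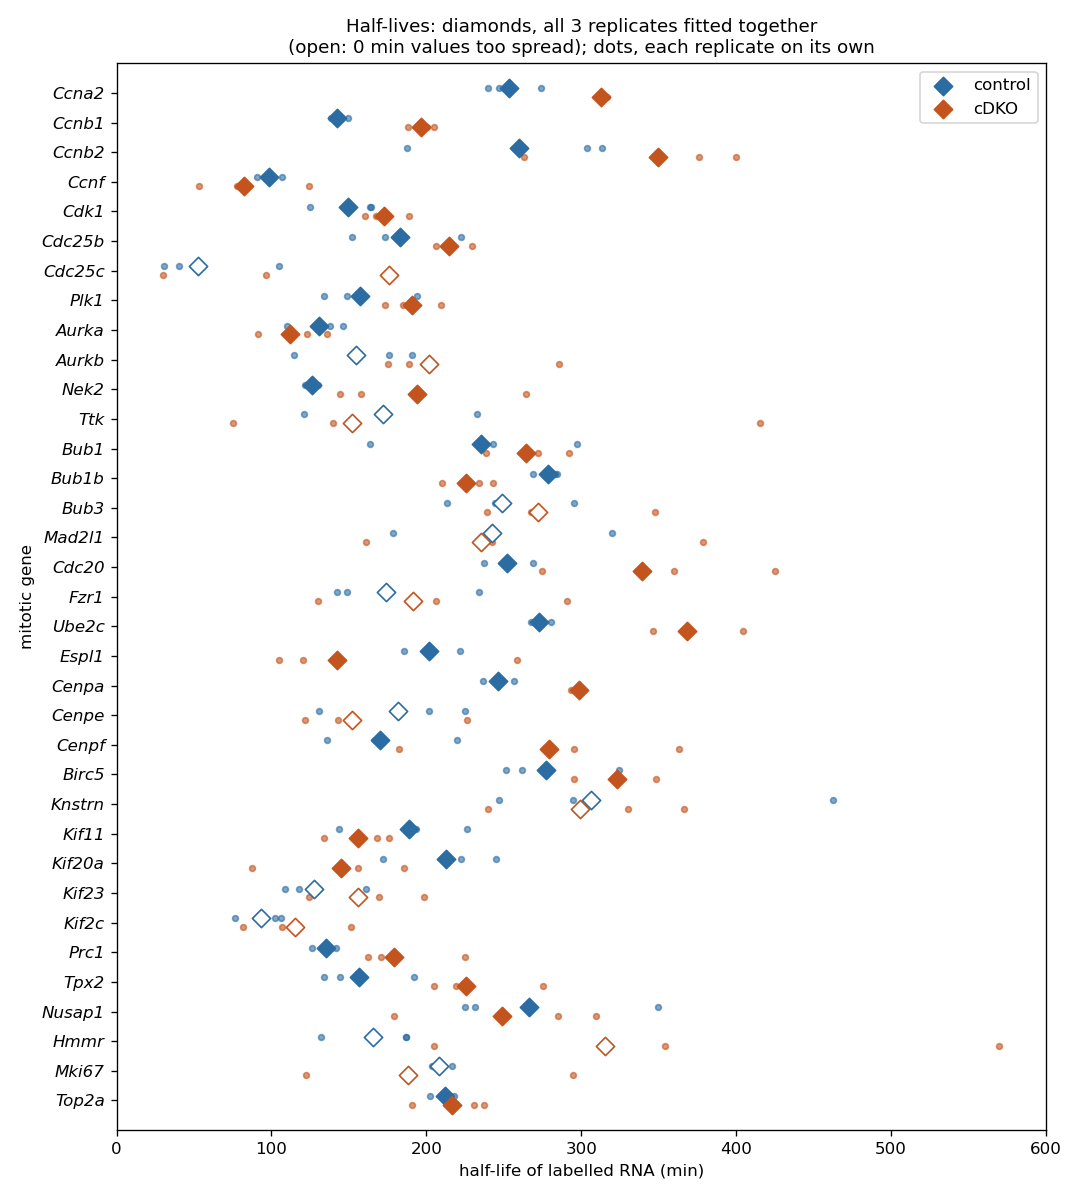
Half-life of labelled RNA in min (horizontal axis) for each of the 35 genes (vertical axis) in control and cDKO, with diamonds for the fit to all 3 replicates, open where the 0 min values were too spread, and dots for each replicate fitted on its own. For Ccnb1, Ube2c and Cenpa the dots of the genotypes do not overlap, and for Top2a the diamonds nearly coincide.

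The change in decay was tested per gene as the difference between genotypes in the log2 loss of conversions per hour, where a value above 0 is a slower loss in cDKO. No member was called (0.13% of all genes), and 10 of the 35 had an unadjusted p under 0.05, where 17.2% of all genes did. The median was 0.08 log2 per hour over the 35 genes, with 32 above 0, and 0.07 over all genes, with 80.7% above 0. Cdc20 came closest. Its conversion rate was 2.34, 2.40 and 2.27% at 0 min and 0.304, 0.326 and 0.291% at 540 min in control, and 1.28, 1.34 and 0.873% and 0.349, 0.304 and 0.286% in cDKO. At 540 min 13.1% of the starting rate was left in control and 26.9% in cDKO. The difference was 0.12 ± 0.03 log2 per hour (SE, adjusted p = 0.0765), and it passed with the replicate number as a block (adjusted p = 0.0119) and with DESeq2. Over all genes the block called 59 and DESeq2 207, beside 12 of 9207 in the main test. For Ccnb1 the difference was 0.12 ± 0.05 (adjusted p = 0.244), but by 540 min its mean rate had come to 0.0607% (control) and 0.0548% (cDKO), no higher than in the genes that had lost most of their label (given below), so the share left was not told apart from background.

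The half-life fit and the decay test weigh the times differently, and 5 of the 23 genes had opposite signs in them (Ccnf, Aurka, Bub1b, Espl1 and Nusap1). In 31 of the 35 genes the share left at 540 min lay below the fitted curve in control, and in 31 of 35 in cDKO. For Bub1b 3.80% was left at 540 min in control and 9.10% in cDKO, although the fitted half-life was shorter in cDKO, and its mean rates then were 0.0701% and 0.0852%. The background rate of conversion was not measured, as libraries without 4SU were not used here. In 418 genes that had lost most of their label by 180 min in control, the cDKO rate at 540 min was 0.0619%. The mean rate at 540 min lay below this in 10 of the 35 genes in control and 16 in cDKO, with 18 below it in at least 1 genotype, so for these the share left was not told apart from background, and the starting rates over which it is taken differed between the genotypes. With the rate of 0.0619% subtracted 15 of 21 members were longer in cDKO, with a median log2 ratio of 0.19, and the share over all genes is not given here.

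**Figure D5:**
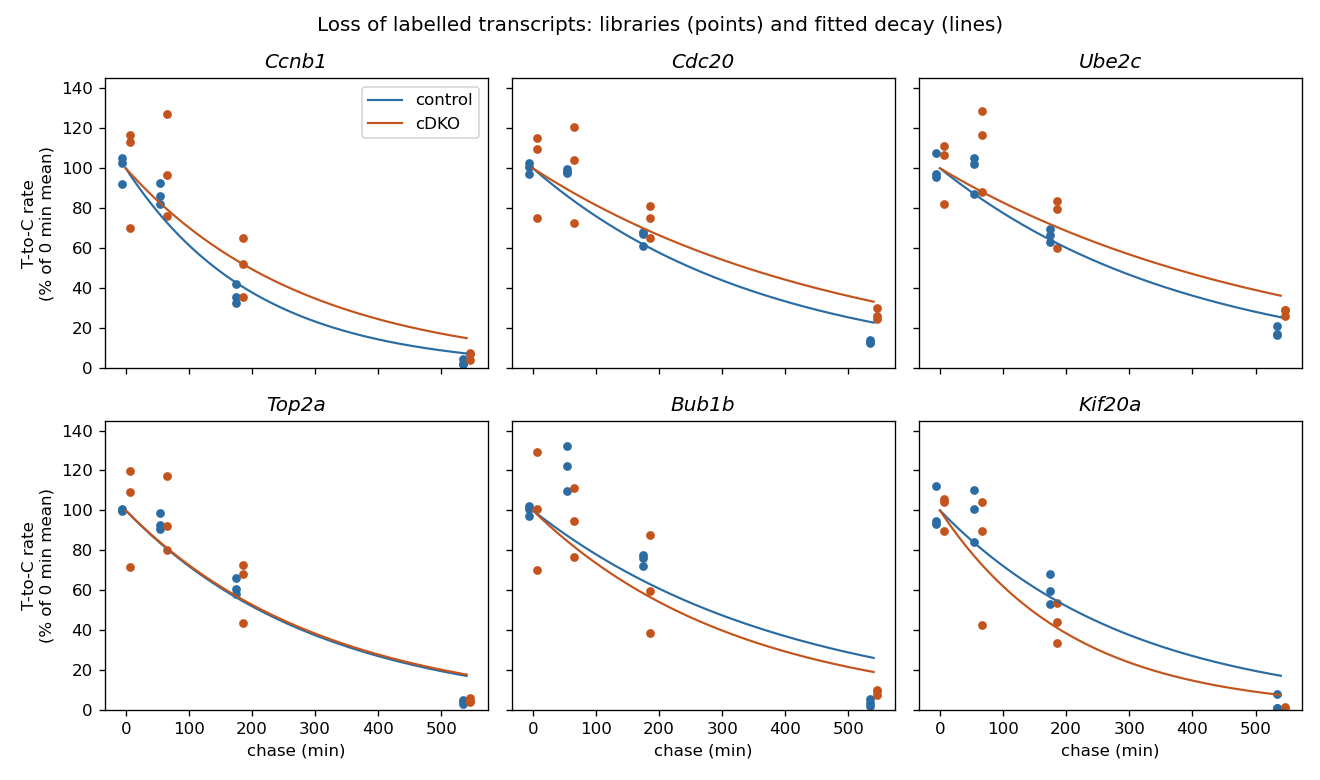
Conversion rate as a percentage of the mean at 0 min of the same genotype (vertical axes), against chase time in min (horizontal axes, points shifted slightly sideways) for 6 members, with points for libraries and lines for the fitted single exponential. Cdc20 and Ube2c keep a larger share of their 0 min rate in cDKO than in control at 540 min. The lines of Top2a nearly coincide, and for Bub1b and Kif20a the cDKO line lies under the control line.

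The measured 3′UTR intervals of the mitotic genes had a median of 666 bases when summed per gene, from 62 (Cdc20) to 2936 (Birc5), beside a median of 1039 over all genes tested at 0 min, and 31.2% of their bases were T, beside 29.1%. Of the 20 genes with TTTGAA in the promoter, 7 were called lower in the control chase and 6 higher in cDKO at 540 min, against 3 and 5 of the 10 genes whose promoter lacks these letters. Of the 5 genes without a promoter sequence, 3 were called lower in the control chase and 2 higher in cDKO at 540 min. Among the genes whose elements are printed above, Prc1 and Ccnf were called in both comparisons and Cenpf in the control chase only. Kif23 was called in the opposite directions at an earlier time, higher in the control chase and lower in cDKO. Ccnb2 and Ttk were called in no comparison.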

How the data were processed

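3′ end libraries (QuantSeq FWD) of 24 SLAM-seq samples were mapped, filtered and tabulated by the authors with SlamDunk 0.4.3 over 3′UTR intervals of GRCm38 (mm10), per the file headers, with a table per library and no pooling. The deposited tables hold raw read counts per interval, CPM (relative to all filtered reads), the conversion rate as a fraction of covered T positions, and the bases and T positions of each interval; other mapping settings, and whether counting used strand, were not given in the sources used here.

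Of 39419 lines per table, 99.2% were matched to a gene symbol by accession through RefSeq. Lines that repeat an interval were counted once, overlapping intervals of a gene were represented by the longest, and the kept intervals were summed to 20867 genes. Levels were recomputed as CPM relative to these 3′UTR reads. Counts were tested with edgeR 4.0.16 (TMM, filterByExpr, quasi-likelihood test, Benjamini-Hochberg adjustment over all genes, adjusted p under 0.05) in R 4.3.3, each comparison with its own libraries, and DESeq2 1.42.0 was an alternative. Loss of label was tested on conversions with log covered T as offset. Half-lives were fitted as single exponentials to rates divided by the 0 min mean of the genotype, within 1 to 10000 min. Genes needed at least 100 covered T positions in every library and, at 0 min, a mean rate above 0 and an SD of the divided rates below 0.3. The mean above 0.8 that the methods also require was not applied, since every gene meets it once rates are divided by their own mean. Scripts were tested on simulated data with 200 changed genes.

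The members and lists were chosen with earlier results of these data known. Every member is accounted for by name, values in every library are given for 12 core members and for up to 3 called members per direction with the largest log2 change, and other genes are named where called, up to 3 a list. A marker of the erythroid list is not reported here and was left out of its sum. Tables for replicates with the same number were checked for pairing by the correlation of their deviations from group means over 8340 genes. In cDKO same-numbered libraries at 0 min and at each later time correlated at 0.14 to 0.59, and others at -0.50 to 0.12, so the numbers were taken to pair the cDKO libraries. In control, and between genotypes, same-numbered libraries correlated at -0.07 to 0.12. Reads are not independent molecules, since no molecular identifiers are named in the sources used here, and p-values measure the spread between these libraries.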

Additional observations from a re-analysis of the deposited data

How the results depend on the processing

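No alternative changed the direction of a called result. Over the alternatives, 2068 values of single genes kept their direction and their side of the threshold, 136 no longer passed and 12 newly passed. Leaving out 1 library at a time gave 0 to 4 members called between genotypes at 0 min (3 with all libraries), 2 to 5 at 60 min (5), 3 to 7 at 180 min (6) and 2 to 9 at 540 min (14). Along the control chase it gave 0 to 2 at 60 min (2), 1 to 3 at 180 min (3) and 9 to 11 at 540 min (13), and in the cDKO chase 0 each. Genes longer-lived in cDKO numbered 14 to 20 (16). With genes of chromosome 3 left out, 0 members were called at 0 min, 3 at 60 min and 3 at 180 min. Ccna2 and Cenpe, called at these times with all genes, lie on that chromosome and could not be called in this fit. For the loss of conversions, DESeq2, the library-wide conversion rate in the offset and the replicate block each called 1 member, Cdc20. Over all genes DESeq2 called 207 and the block 59, beside 12 of 9207 in the main test. The count over all genes with the library-wide rate is not given here. The cause of these shifts was not tested, except that fewer libraries or genes entered the fits that left some out.

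With the replicate number as a block, 6 members were called between genotypes at 540 min, all higher in cDKO, against 2 at 0 min, 4 at 60 min and 4 at 180 min. Over all genes the block called 1580 of 10275 at 540 min and 1087 of 10186 at 0 min, in either direction. It called 1783 of 10141 at 60 min and 1717 of 10142 at 180 min. In the control chase the block gave 2, 3 and 13 members, where 332, 681 and 1582 of all genes were called. For the difference between genotypes in the chase it gave 0 members and 6 genes in all. Control libraries share only a number.

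Members with few reads, such as Cdc25c and Ttk, had the least depth behind them, and fewer conversions were counted in cDKO than in control, which limits the half-lives there. Chase time is the labelled batch.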
